A study of Mus musculus with 6 samples.

Results

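LIM homeobox factors are transcription factors that carry a pair of LIM zinc-finger domains beside a DNA-binding homeodomain. Of the 10 genes of the family considered here (Lhx1, Lhx2, Lhx3, Lhx4, Lhx5, Lhx6, Lhx8, Lhx9, Isl1 and Lmx1a), 9 had a probe set assigned to that symbol alone, out of 19938 genes measured in this way. Each of the 9 had 1 such probe set, and Lmx1a had none and is not analysed here. The members were chosen by gene family, and where a gene has several such probe sets the brightest one over all arrays represents it.

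The samples were cultured neural stem cells of female wild-type C57BL/6 mice, taken at embryonic day 17.5. They came from the subventricular zone of the third ventricle (3 arrays) and of the lateral ventricle (3 arrays), each array from a separate culture labelled a biological replicate. All 6 cultures grew as dissociated cells in low-attachment dishes, in DMEM/Neurobasal medium with N2, B27, 20 ng/ml FGF and 20 ng/ml EGF, and carried no other treatment or allele. The labels name no animal behind a replicate, so the p-values speak of spread among cultures and not among animals, and expansion in FGF and EGF limits them as a model of the tissue.

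In the embryo, LIM homeobox genes are switched on in combinations that set regional and neuronal identity. Lhx2 acts in progenitors of the cortex, hippocampus, eye and hypothalamus, whereas most other members are known mainly from young neurons. Lhx6 and Lhx8 are known from the medial ganglionic eminence, and Lhx1 and Lhx5 from the diencephalon and from Cajal-Retzius cells. Isl1 is known from hypothalamic, striatal and motor neurons. Lhx3 and Lhx4 are known from motor neurons and, outside neurons, from the pituitary. The LIM domains bind the cofactors Ldb1 and Ldb2, which join LIM homeobox proteins into larger complexes, and the LIM-only proteins Lmo1 to Lmo4 compete for the same cofactors.

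Lhx2 was the member that stood furthest above background and the one with the widest range over the arrays. RefSeq gives it a pair of start sites, and the windows from 250 bases before to 50 bases after each (GRCm38.p6, plus strand) are shown for this member of clearest signal. Capitals mark CG dinucleotides, of which the first window (chr2:38339031-38339330) holds 34 and the second (chr2:38351058-38351357) 29.
Lhx2 start 1: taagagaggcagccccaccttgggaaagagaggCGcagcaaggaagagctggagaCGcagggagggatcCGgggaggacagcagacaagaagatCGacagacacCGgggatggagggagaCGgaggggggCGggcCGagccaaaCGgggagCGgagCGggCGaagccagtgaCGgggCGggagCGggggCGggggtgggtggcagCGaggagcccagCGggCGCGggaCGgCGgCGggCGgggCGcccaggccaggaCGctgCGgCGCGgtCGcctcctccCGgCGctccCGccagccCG
Lhx2 start 2: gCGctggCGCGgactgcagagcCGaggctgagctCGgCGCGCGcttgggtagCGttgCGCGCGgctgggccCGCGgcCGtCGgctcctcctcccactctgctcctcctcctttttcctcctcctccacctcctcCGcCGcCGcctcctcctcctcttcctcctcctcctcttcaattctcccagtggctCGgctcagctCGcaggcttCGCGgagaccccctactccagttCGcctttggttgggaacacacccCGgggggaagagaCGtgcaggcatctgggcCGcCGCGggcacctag

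The median over 32851 such windows of the RefSeq table was 7 CG dinucleotides, and 12.9% of the windows held at least 29. Windows were found for 9 of the 10 members, Lmx1a included and Lhx5 not, and 11 of the 13 windows lay above that median. The window of Isl1, a factor below background here, held 37 CG dinucleotides, and that of Lhx8 held 4. The homeodomain core TAATTA, which reads the same on both strands, was in 0 of the 13 windows and in 5.29% of all windows. The GC box GGGCGG, searched on both strands, occurred 4 times in the first window of Lhx2 and 0 times in the second. It was in 7 of the 13 windows of the family (53.8%) and in 35.7% of all windows. The array probes do not tell these start sites apart.

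Levels are RMA values on the log2 scale, in which 1 unit is a doubling of signal. As a gauge of background, the 95th percentile of 1027 olfactory receptor genes was taken in each array, which lay between 5.03 and 5.16. Probes differ in affinity, so a level is set against this gauge and not against another gene, and a gene below it is not shown to be absent. Above the gauge in all 6 arrays were 3 of the 9 measured members (Lhx2, Lhx3 and Lhx4), against 55.3% of all genes. Lhx6 was above it in 5 of 6 arrays, and Lhx1, Lhx5, Lhx8, Lhx9 and Isl1 in none. Lhx2 exceeded 98.8% to 99.6% of the olfactory receptor genes, depending on the array. Lhx3 and Lhx4 exceeded 95.8% to 98.3% of them, so their signal lay only just past the gauge.

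**Figure D1:**
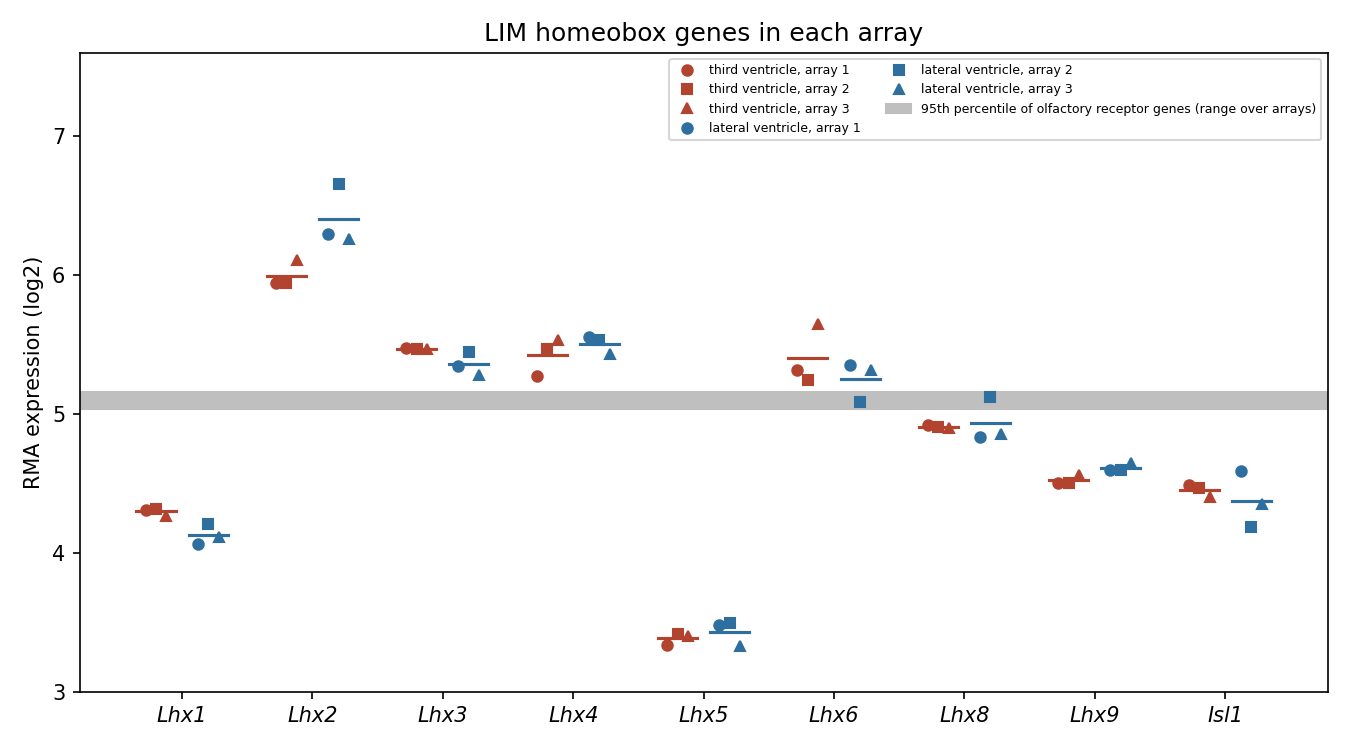
RMA expression (log2) of the 9 measured LIM homeobox genes in each array, with the third ventricle left of the lateral ventricle for each gene, horizontal lines at the group means and a grey band for the gauge of background over the 6 arrays. Lhx2 lies above the band in all arrays, 4 genes (Lhx1, Lhx5, Lhx9 and Isl1) lie below it in all arrays, and Lhx8 reaches into it in lateral array 2.

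No LIM homeobox gene passed between the regions. At an adjusted p below 0.05 in limma there were 0 of 9, against 46 of 19938 genes (0.231%). At an unadjusted p below 0.05 there was 1 of 9, Lhx2, against 12.6% of all genes. The median difference (the third minus the lateral ventricle) was -0.03 over the 9 members and -0.02 over all genes. Without regard to sign, the median was 0.09 over the members and 0.11 over all genes. The 3 arrays of each region did not overlap in 4 of 9 members, higher in the third ventricle for Lhx1 and Lhx3 and lower for Lhx2 and Lhx9, while the same held for 17.0% of all genes. The gaps between the groups of these 4 members were 0.02 to 0.15.

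Lateral ventricle array 2 stood apart from the other lateral arrays, with correlations over all genes of 0.980 and 0.982 to them and of 0.991 to each array of the third ventricle. Results are therefore also given without it. That choice was made from these same values, so calls made without it are not independent evidence. With any other 1 array left out 4 to 25 genes passed, against 1644 without lateral array 2. In that fit 0 of 9 members passed, against 8.25% of all genes. Unadjusted p-values below 0.05 were found for 1 of 9, again Lhx2, against 4295 of 19938 genes. The name neural stem cells is that of the labels. Of 10 listed neural stem cell markers, 9, with Fabp7 and Vim, lay above the gauge in all arrays and Prom1 in all but 1. The share of all genes was 55.3%. Also above it in all arrays were 5 of 5 oligodendrocyte progenitor, 3 of 4 astrocyte and 5 of 9 neuron markers. These counts therefore do not establish stem cell identity. Below the gauge in all arrays were 4 of 4 vascular, 2 of 4 microglial, 3 of 4 meningeal and 3 of 4 choroid plexus markers, against 6860 of 19938 genes. The mean level of the 7 measured cell cycle markers was 9.18 to 9.19 in the third ventricle arrays and 7.65, 9.22 and 8.04 in lateral arrays 1, 2 and 3.

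Lhx2 and Lhx9 are the vertebrate relatives of fly apterous. Lhx2 (probe set 10471833), a selector of cortical and eye progenitors in the mouse, measured 5.94, 5.95 and 6.11 in the third ventricle cultures, against 6.30, 6.66 and 6.26 in the lateral ventricle cultures. All arrays of the third ventricle lay below all lateral arrays, with a gap of 0.15 between the groups, and the highest value was that of lateral array 2. The means were 6.00 ± 0.09 and 6.40 ± 0.22 (SD, n = 3 each), a difference of -0.41 with a 95% interval of -0.70 to -0.11. The limma adjusted p was 0.304, so the 1.33-fold higher signal in the lateral cultures did not pass. Without lateral array 2 the difference was -0.28 (95% interval -0.52 to -0.05, limma adjusted p = 0.152). Lateral array 2 was also the lateral array whose cell cycle level was close to that of the third ventricle. Whether the Lhx2 values follow the cell cycle markers was not tested. Against a stricter gauge, set at the 99th percentile, Lhx2 was above in 2 of 3 arrays of the third ventricle and in 3 of 3 lateral arrays.

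Markers of other cell types had differences in both directions. Of 9 neuron markers 7 had a negative difference, against 10886 of 19938 genes. None passed with all arrays, against 0.231% of all genes. Without lateral array 2, 2 passed as lower, against 8.25% of all genes in either direction. The mean level of the 9 was 6.21 to 6.37 in the third ventricle arrays and 6.47 to 6.67 in the lateral arrays. Map2 and Tubb3, those with the highest means, differed by 0.24 and -0.60. Elavl4 also had a positive difference (0.41), and the largest was that of Dcx (-1.63, limma adjusted p = 0.136). The mean of the 5 oligodendrocyte progenitor markers was 6.98 to 7.10 in the third ventricle arrays and 7.44 to 7.56 in the lateral arrays, with Pdgfra, the PDGF receptor of these progenitors, passing as lower (difference -1.79, limma adjusted p = 0.00707). Only 3 of the 5 had a negative difference: beside Pdgfra, Sox10 stood at -0.74 (limma adjusted p = 0.118) and Cspg4 at -0.09. Olig1 and Olig2 stood at 0.17 and 0.09, and at 0.39 and 0.16 without lateral array 2. All 4 astrocyte markers had negative differences, against 10886 of 19938 genes, and 1 of them lay below the gauge in all arrays. Their mean level was 5.55 to 5.80 in the third ventricle arrays. It was 6.42, 5.77 and 5.73 in lateral arrays 1, 2 and 3, so only lateral array 1 lay above the range of the third ventricle. The part of these cell types in the Lhx2 values was not tested, and in bulk RNA fewer cells with a transcript and less transcript per cell cannot be told apart.

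Lhx9 (probe set 10358272), a factor of the diencephalon and of the developing gonad, measured 4.51, 4.51 and 4.56 in the third ventricle cultures, against 4.60, 4.60 and 4.65 in the lateral cultures. The groups did not overlap, but the gap was 0.03 and all 6 values lay below the gauge. The difference was -0.09 (95% interval -0.28 to 0.10, limma adjusted p = 0.715).

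Lhx3 and Lhx4 act together in the pituitary and in motor neurons. Lhx3 (probe set 10480912) measured 5.48, 5.47 and 5.47 in the third ventricle cultures, against 5.34, 5.45 and 5.28 in the lateral cultures. The third ventricle arrays were higher without overlap, by a gap of only 0.02, and lateral array 2 was the one next to them. The difference was 0.11 (95% interval -0.09 to 0.32, limma adjusted p = 0.658), and 0.07 without lateral array 3. Lhx4 (probe set 10359027) measured 5.28, 5.47 and 5.54 in the third ventricle cultures, against 5.55, 5.53 and 5.43 in the lateral cultures. Its groups overlapped, with array 1 of the third ventricle the lowest, and the difference was -0.08 (95% interval -0.31 to 0.16, limma adjusted p = 0.797). It was -0.0048 without that array and -0.13 without array 3 of the third ventricle.

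Lhx6 and Lhx8 are activated by Nkx2-1 in the ventral telencephalon, Lhx6 in future cortical interneurons and Lhx8 in future cholinergic neurons. Lhx6 (probe set 10482095) measured 5.31, 5.25 and 5.65 in the third ventricle cultures, against 5.35, 5.09 and 5.32 in the lateral cultures. Array 3 of the third ventricle was the highest and lateral array 2, which fell below the gauge, the lowest, and among the other 4 arrays both lateral values lay above both values of the third ventricle. The difference was 0.15 (95% interval -0.16 to 0.46, limma adjusted p = 0.692). It was 0.03 without array 3 of the third ventricle, 0.07 without lateral array 2 and 0.23 without array 2 of the third ventricle. Lhx8 (probe set 10502961) measured 4.92, 4.91 and 4.90 in the third ventricle cultures, against 4.84, 5.12 and 4.85 in the lateral cultures. It lay under the gauge throughout, and lateral array 2 alone was above the third ventricle values. Its difference of -0.03 (limma adjusted p = 0.938) turned to 0.06 without that array.

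Lhx1 and Lhx5 are close paralogues. Lhx1 (probe set 10389283), needed for head formation in the mouse embryo and later in the suprachiasmatic nucleus, measured 4.31, 4.32 and 4.27 in the third ventricle cultures, against 4.06, 4.21 and 4.11 in the lateral cultures. The groups did not overlap (gap 0.05), yet every value lay below the gauge and exceeded only 74.5% to 83.3% of the olfactory receptor genes. The difference was 0.17 (95% interval -0.03 to 0.37, limma adjusted p = 0.472). Lhx5 (probe set 10525069), a regulator of hippocampal and Cajal-Retzius cell development, measured 3.34, 3.41 and 3.40 in the third ventricle cultures, against 3.48, 3.49 and 3.33 in the lateral cultures. These values lay at 42.7% to 53.2% of the olfactory receptor genes, in the middle of the background, and differed by -0.05 (limma adjusted p = 0.869). With 1 array left out the difference ranged from -0.10 without lateral array 3 to -0.02 without lateral array 2, and it was -0.03 without array 1 of either region.

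Isl1 (probe set 10412335), a factor of motor, striatal and arcuate nucleus neurons, measured 4.49, 4.47 and 4.41 in the third ventricle cultures, against 4.59, 4.18 and 4.35 in the lateral cultures. The groups overlapped below the gauge, and lateral arrays 1 and 2 held the highest and the lowest value. The difference of 0.08 (95% interval -0.20 to 0.35) was -0.02 without lateral array 2 and 0.19 without lateral array 1. For the 8 members other than Lhx2, the 95% intervals ran from -0.31 at the lowest (Lhx4) to 0.46 at the highest (Lhx6), or from 1.24-fold lower to 1.37-fold higher signal in the third ventricle. Where both groups lie below the gauge, such intervals describe signal near background and no fold is given.

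**Figure D2:**
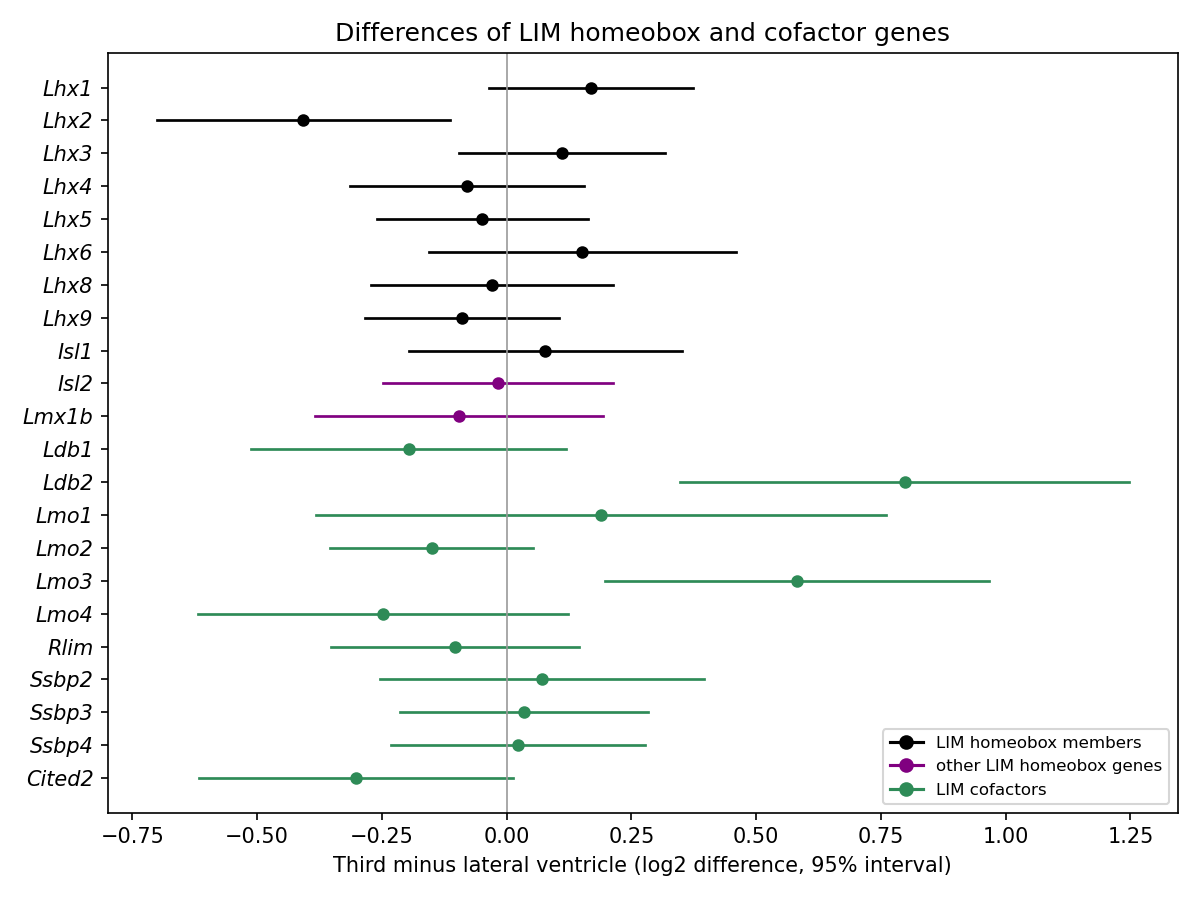
Differences between cultures of the third and the lateral ventricle (log2, the third minus the lateral) with 95% intervals from limma for the 9 members, for Isl2 and Lmx1b, and for 11 LIM cofactors. Lhx2 is at -0.41, Ldb2 at 0.80 and Lmo3 at 0.58, and the intervals of these 3 genes leave out 0, while no adjusted p passed.

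Isl2 and Lmx1b, family genes outside the 10, gave similar pictures. Lmx1b, known from dorsal limb and from serotonin and dopamine neurons, measured 5.73, 5.64 and 5.61 in the third ventricle cultures, against 5.55, 5.99 and 5.73 in the lateral cultures. It was above the gauge in 6 of 6 arrays, with lateral array 2 the highest, and differed by -0.10 (limma adjusted p = 0.802). Without lateral array 2 its difference was 0.02. Isl2 was below the gauge in all arrays, at 4.66 to 4.78 in the third ventricle cultures and 4.59 to 4.83 in the lateral cultures, with a difference of -0.02 that was 0.03 without lateral array 2.

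The profile of Lhx2 over the 6 arrays was set against those of 17342 other named genes by the root mean square difference of values centred on each gene's mean. The closest were Mmp8 (0.04), a collagenase, Cacna2d1 (0.06), an auxiliary calcium channel subunit, Eya1 (0.06), a transcriptional coactivator, Gata5os (0.07) and the ligand gene Wnt1 (0.07). Mmp8 and Wnt1 lay below the gauge in all 6 arrays and Gata5os in 3. Cacna2d1 measured 6.98, 7.00 and 7.20 in the third ventricle cultures, against 7.31, 7.61 and 7.38 in the lateral cultures. Eya1 measured 5.17, 5.33 and 5.30 in the third ventricle cultures, against 5.52, 5.95 and 5.50 in the lateral cultures. Like Lhx2, both were highest in lateral array 2. With this many genes and 6 arrays, close profiles are found for any gene.

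**Figure D3:**
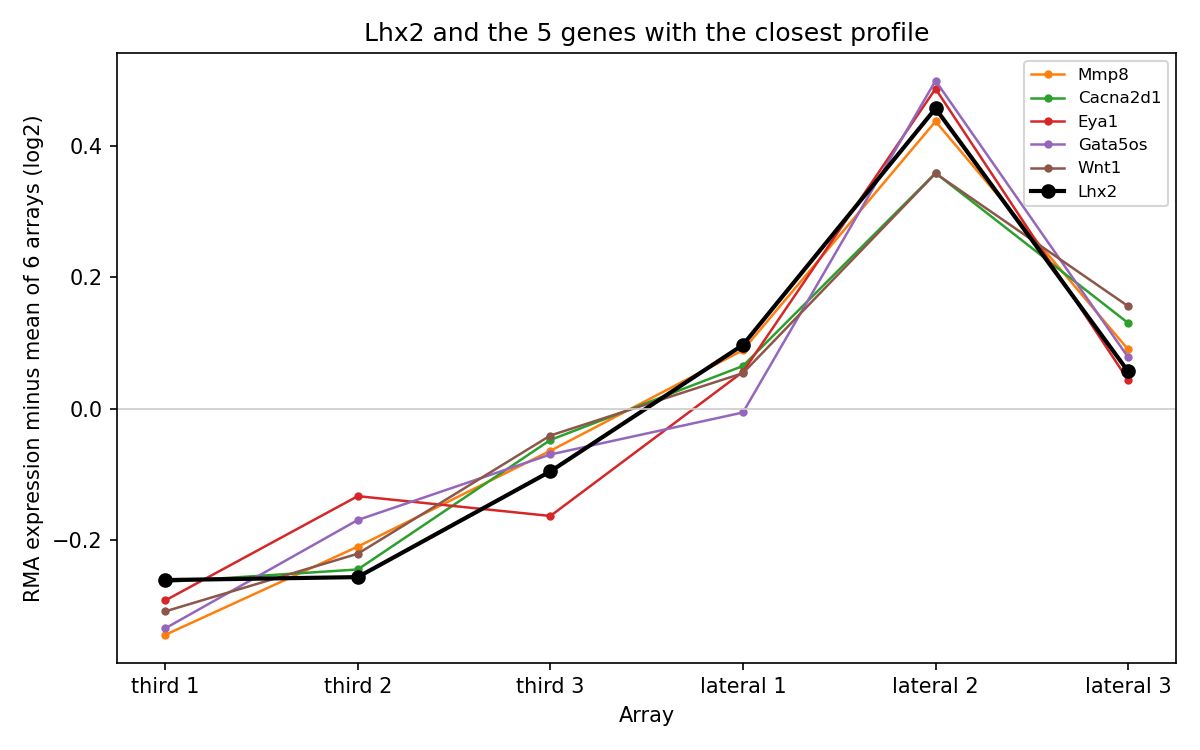
RMA expression (log2) of Lhx2 and of the 5 genes with the closest profile, each minus its own mean over the 6 arrays. All 6 genes are lowest in the third ventricle arrays and peak in lateral array 2.

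All 11 listed cofactor genes of LIM homeobox proteins, the competing LIM-only genes included, were above the gauge in all arrays, against 55.3% of all genes. Lmo2, with the lowest mean of the 11, exceeded 98.6% to 99.2% of the olfactory receptor genes. Of the 11, 0 passed, against 0.231% of all genes. Positive differences were found for 6 and negative ones for 5, and the median was 0.02. The ubiquitin ligase Rlim, which marks Ldb proteins for degradation, and Ldb1, the more general of the Ldb pair, had the highest means and differed by -0.10 and -0.20. Ldb1 measured 8.59, 8.14 and 8.38 in the third ventricle cultures, against 8.74, 8.52 and 8.45 in the lateral cultures, with overlapping groups.

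Ldb2, the second LIM domain-binding cofactor, measured 7.00, 6.88 and 7.20 in the third ventricle cultures, against 6.69, 5.94 and 6.06 in the lateral cultures. The third ventricle arrays were all higher, and lateral array 1 lay between them and the other lateral arrays. The means were 7.03 ± 0.16 and 6.23 ± 0.40 (SD, n = 3 each), a 1.74-fold difference (0.80 on the log2 scale, 95% interval 0.35 to 1.25) that did not pass (limma adjusted p = 0.219). Without lateral array 2 it was 0.65 (limma adjusted p = 0.0769).

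Lmo3, a LIM-only protein of forebrain neurons, measured 8.41, 8.28 and 8.34 in the third ventricle cultures, against 7.85, 8.06 and 7.38 in the lateral cultures. Again the third ventricle arrays were all higher, and lateral array 2 was the lateral array nearest to them. The difference was 0.58 (95% interval 0.20 to 0.97, limma adjusted p = 0.281). Without lateral array 2 it was 0.73 and passed (limma adjusted p = 0.0198), in the fit that called 8.25% of all genes.

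The other LIM-only genes did not pass in either fit. Lmo1 measured 6.83, 6.82 and 6.99 in the third ventricle cultures, against 6.37, 6.36 and 7.34 in the lateral cultures, where array 3 was above and arrays 1 and 2 below the third ventricle values. Lmo2, best known from blood and vessel formation, was lower without overlap, at 5.81 to 5.85 in the third ventricle cultures and 5.90 to 6.04 in the lateral cultures (difference -0.15, limma adjusted p = 0.526). Lmo4, a LIM-only protein of the developing cortex, differed by -0.25 (limma adjusted p = 0.573). Cited2, a coactivator that binds LIM homeobox proteins, differed by -0.30 (95% interval -0.62 to 0.01). The single-stranded DNA-binding proteins Ssbp2, Ssbp3 and Ssbp4, partners of the Ldb cofactors, differed by 0.07, 0.04 and 0.02, and without lateral array 2 those of Ssbp2 and Ssbp4 were -0.02 and -0.05.

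**Figure D4:**
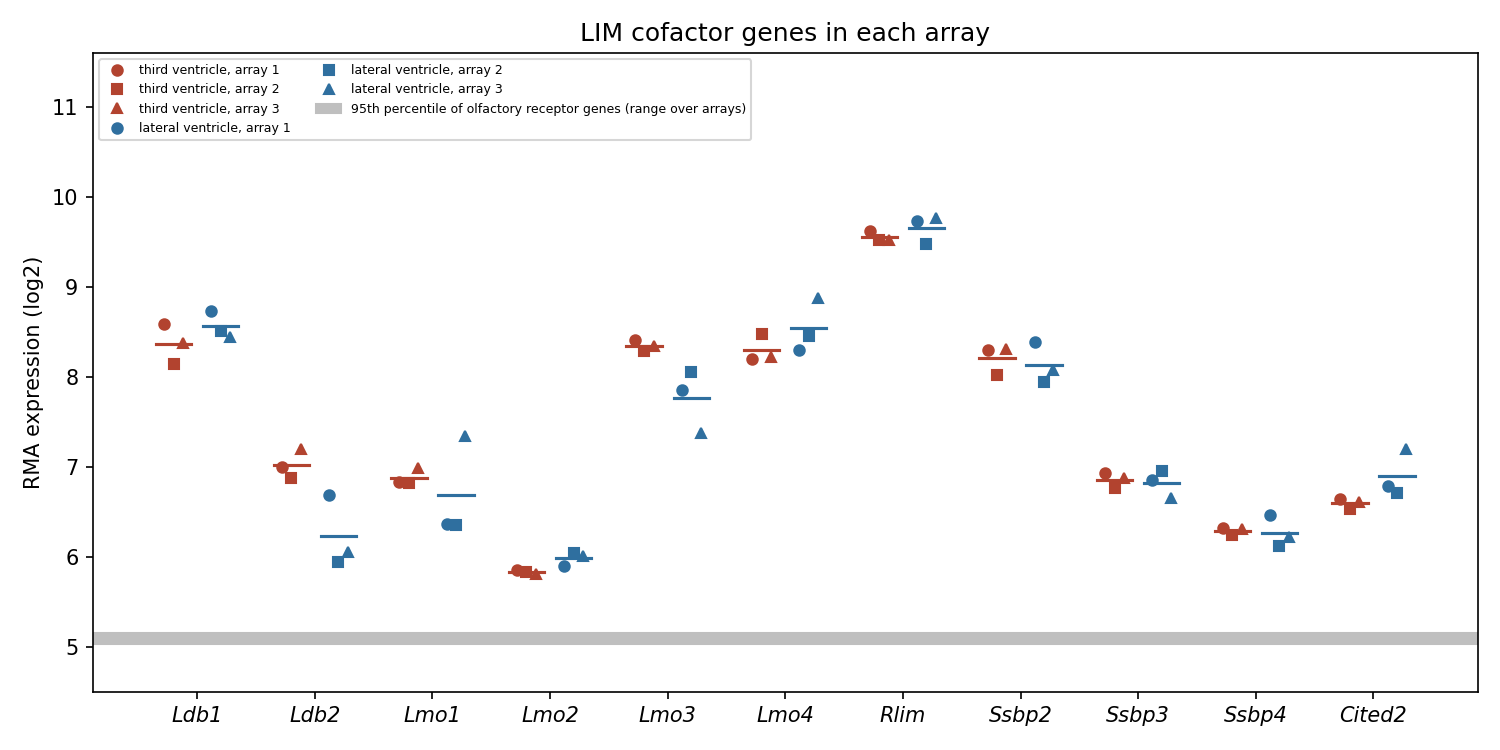
RMA expression (log2) of 11 LIM cofactor genes in each array, with the third ventricle left of the lateral ventricle for each gene, horizontal lines at group means and a grey band for the gauge of background. Ldb2 and Lmo3 are higher in all arrays of the third ventricle, and all 11 genes lie above the band.

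Genes of the programmes in which the factors act gave 0 passing members in each of 7 lists, against 0.231% of all genes. Forebrain partners of Lhx2 had 10 measured genes, 5 with a positive and 5 with a negative difference, and a median of -0.02. Pax6, a factor of dorsal progenitors, measured 6.93, 6.50 and 7.02 in the third ventricle cultures, against 7.26, 7.23 and 6.89 in the lateral cultures, and Emx1 differed by 0.14. The largest difference of the list was that of Dmrta1, a doublesex-related factor of dorsal telencephalic progenitors, named here after its values were seen. It measured 5.02, 4.75 and 4.85 in the third ventricle cultures, all below the gauge, against 6.32, 5.64 and 5.98 in the lateral cultures, all above it. Its difference was -1.11 (95% interval -1.50 to -0.72) and did not pass (limma adjusted p = 0.0620). Without lateral array 2 the difference was -1.27 and passed (limma adjusted p = 0.00118), in the fit that called 8.25% of all genes.

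The interneuron programme of Lhx6 and Lhx8 had 16 measured genes, 8 in each direction, with a median of -0.02. The chemokine receptor Cxcr4, used by migrating interneurons and by many progenitors, differed by 0.58 (limma adjusted p = 0.340) and the chromatin organizer Satb1 by 0.07. Without lateral array 2, Ackr3, the other receptor for the ligand of Cxcr4, passed as higher (0.58, limma adjusted p = 0.0297) and Sox6, a factor downstream of Lhx6, as lower (-0.74, limma adjusted p = 0.0244), both named after their values were seen. That fit called 8.25% of all genes. Over all arrays Ackr3 and Sox6 differed by 0.47 and -0.78. Sox6 is also expressed in oligodendrocyte progenitors, whose markers are given above with Lhx2.

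Cholinergic and motor genes linked to Isl1 and Lhx8 were mostly dim, with 7 of 9 below the gauge in all arrays. The share of all genes was 6860 of 19938, and the median difference of the 9 was -0.07. Gbx2 and Ngfr, which were above the gauge, differed by 0.39 and -0.27. Of 9 measured pituitary genes 6 lay below the gauge in all arrays, against the same share of all genes. Lhb and Gata2, those with the highest means, differed by -0.06 and -0.14. Cajal-Retzius genes had a median of -0.05 over 7. Ebf3, an early B-cell family factor, measured 5.21, 5.26 and 5.14 in the third ventricle cultures, against 5.62, 5.85 and 5.59 in the lateral cultures (difference -0.49, limma adjusted p = 0.162). It passed without lateral array 2 (-0.41, limma adjusted p = 0.0391), in the fit that called 8.25% of all genes. Trp73, a p53 relative of Cajal-Retzius cells, differed by -0.21. Roof plate and dopamine genes linked to Lmx1a had a median of 0.01 over 14, with Otx2 at -0.07 and Nr4a2 at 0.06.

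Hypothalamic neuropeptide genes, some of which mark neurons that need Lhx1, Lhx9 or Isl1, had a median of 0.04 over 14. Of these, 10 had a positive difference, against 9052 of 19938 genes. Below the gauge in all arrays were 5 of the 14, against 6860 of 19938 genes. Pmch, which encodes melanin-concentrating hormone, measured 7.22, 7.31 and 7.55 in the third ventricle cultures, against 5.84, 7.34 and 6.12 in the lateral cultures. Lateral array 2 lay among the third ventricle arrays. The difference was 0.93 (limma adjusted p = 0.351), and 1.38 without that array (limma adjusted p = 0.000861). Gnrh1, which encodes gonadotropin-releasing hormone, measured 7.18, 7.16 and 7.09 in the third ventricle cultures, against 6.41, 6.81 and 6.25 in the lateral cultures. Its groups did not overlap, and the difference was 0.65 (limma adjusted p = 0.182), and 0.81 without lateral array 2 (limma adjusted p = 0.00232). The fit without lateral array 2 called 8.25% of all genes. Whether the Pmch and Gnrh1 values follow the cell cycle markers was not tested.

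**Figure D5:**
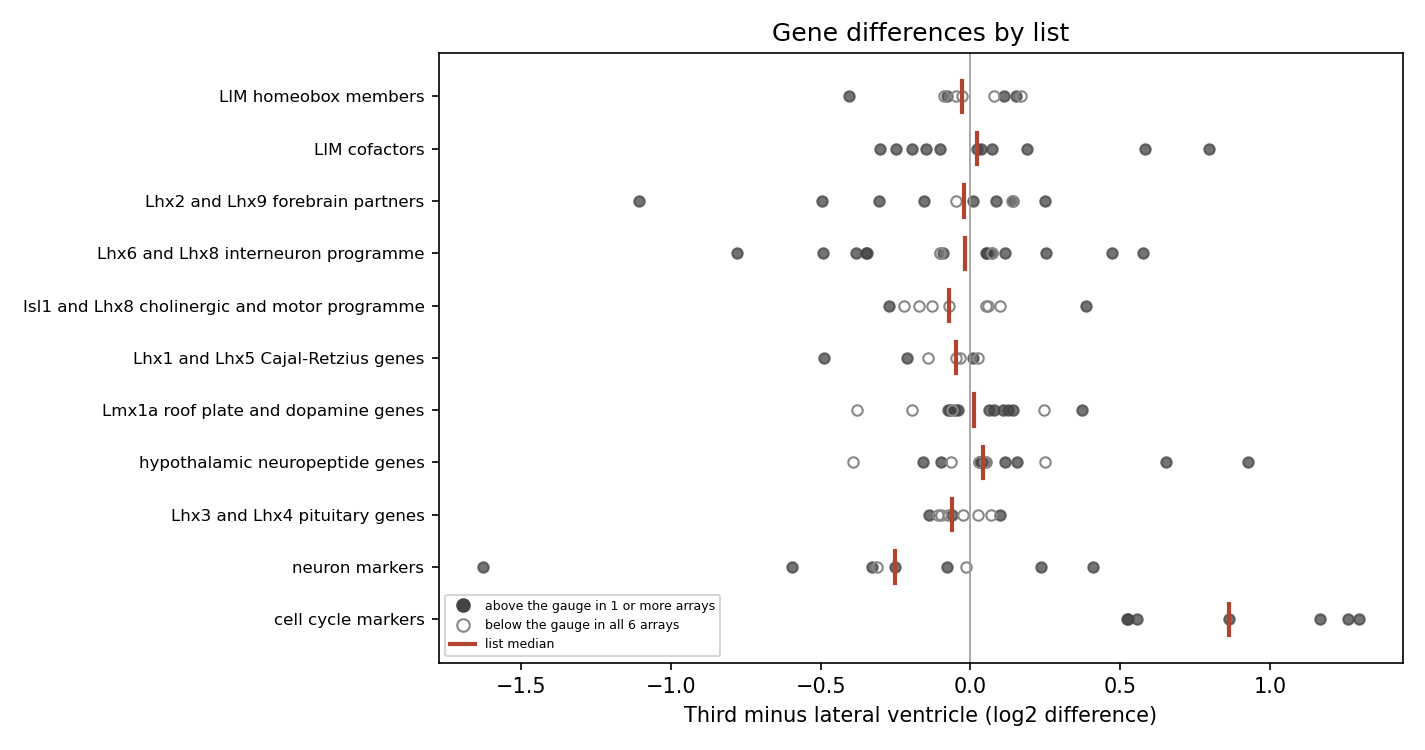
Difference of each gene between cultures of the third and the lateral ventricle (log2, the third minus the lateral) by list, with filled points for genes above the gauge of background in at least 1 array, open points for genes below it in all 6, and a vertical line at each list's median. The medians of the LIM homeobox members and of their cofactors lie at -0.03 and 0.02, and that of the cell cycle markers at 0.86.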

How the data were processed

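Neural stem cell RNA from 6 cultures was labelled after amplification from 500 pg to 50 ng, per the labels' protocols, and hybridized to Affymetrix arrays. Each deposited value is the log2 signal of a probe set. Per the submitters' processing notes, the authors computed it by RMA with Affymetrix Expression Console 1.1. RMA compresses dim probe sets toward background, so their differences are understated. Its other settings are unstated.

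Of 35556 probe sets, 21789 had 1 gene symbol in the platform annotation, 1621 several and 12146 none, which left 19938 genes. The unit is the array, and no filter was set. The third minus the lateral ventricle was fitted with limma 3.58.1 (lmFit and eBayes) in R 4.3.3. P-values were adjusted by Benjamini-Hochberg across the whole table and called below 0.05. With 3 arrays a side, the smallest two-sided p of an exact permutation test is 0.1, so none was run. The number of arrays limits the precision.

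Members, the gauge and 19 gene lists were chosen with earlier results of these data known. Named are all members, Isl2, Lmx1b, Ldb1, Ldb2 and Lmo1 to Lmo4, up to 4 passing genes of each list or, with none passing, the 2 with the highest mean, and the 5 profiles closest to the member of widest range. For astrocyte, vascular, microglial, meningeal, choroid plexus and cell cycle markers only counts or mean levels are given, and no gene is named. Other genes with values (Dmrta1, Ackr3, Sox6, Cited2, Ssbp2, Ssbp3, Ssbp4, Prom1, Sox10, Cspg4, Olig1, Olig2, Dcx and Elavl4) were chosen after their values were seen.

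Tested on simulated data for this comparison (19938 genes, 200 changed), 23.0% of the 1.5-fold, 87.1% of the 2-fold and 98.4% of the 4-fold changes were recovered. The simulated noise was independent and normal, with no array standing apart as lateral array 2 does. These shares may therefore be too high for the measured data. Promoter windows are from RefSeq, GRCm38.p6. Alternatives were probe sets averaged per gene, the dimmest 40% of genes left out, repeated quantile normalization and cyclic loess, variance trend, array weights, a replicate block, gauge percentiles and each array left out.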

Additional observations from a re-analysis of the deposited data

How the results depend on the processing

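The count of 0 passing members was the same under all 13 alternatives of the fit, and 7 of the 9 measured members kept their sign in each alternative that held them. The 2 that did not were near background. Lhx8 (-0.03) was at 0.0082 with array weights and at 0.063 without lateral ventricle array 2, within -0.079 to 0.063 over the fits that left out 1 array, and Isl1 (0.08) was at -0.018 without lateral array 2, within -0.018 to 0.19. The causes were not tested. Lhx2 ranged from -0.48 to -0.28 with adjusted p from 0.152 to 0.672. The filter on dim genes left out Lhx1, Lhx5, Lhx8, Lhx9 and Isl1. The count of all genes passing (46) was 158 with array weights and 4 to 1644 with 1 array left out, highest without lateral array 2. The replicate number as a block gave 57 genes and 0 members. Same-numbered arrays correlated in their deviations at 0.24, 0.11 and 0.07, each array best with its own number, a hint from the data and not the design. Above the gauge in all arrays were 5 members at the 90th and 0 at the 99th percentile, against 3, by the construction of the gauge. Levels near background limit what can be said of all members but Lhx2.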
